A study of Mus musculus with 6 samples.

Results

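The genes described here are 9 markers of fetal-like repair epithelium, Ly6a, Anxa1, Anxa3, Clu, Krt7, Krt23, Msln, Sprr1a and Cd44, measured in mouse colon with and without Islr. They were taken by name, and all of their probes on the array were found through the RefSeq accession of each probe. This gave 13 probes among the 56605 on the array, for 9 of the 23462 genes that could be named. Cd44 had 3 probes, Anxa1 and Anxa3 had 2 each, and the other 6 genes had 1. The arrays came from colon of 3 control and 3 Islr knockout mice, all male, with 1 array per animal, and the comparison asked how loss of Islr, a secreted leucine-rich repeat protein, altered colonic gene expression. The source of every sample, control and knockout alike, is given as colon after 5 days of 3.5% DSS in the drinking water and 1 day of recovery, although a treatment field of the same labels states none. DSS (dextran sulfate sodium) injures the colonic epithelium. Strain, age, the kind of knockout allele and the cells in which Islr was deleted are not given in the sources used here.

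When the gut lining is wounded, the epithelium that survives at the wound edge switches off much of its adult stem cell programme and switches on genes that are otherwise typical of fetal gut. Ly6a (Sca-1) is the surface protein most used to recognise this state, Clu marks rare cells that rebuild crypts after damage, and the annexins, Krt7, Krt23, Msln and Sprr1a accompany them. The state is linked to YAP and TEAD transcription factors and to contact with wound matrix, including hyaluronan, whose receptor is Cd44. None of these genes belongs to that epithelium alone: Ly6a is also made by endothelium, fibroblasts and lymphocytes, Anxa1 and Cd44 by leukocytes, and Msln by the mesothelium that covers the bowel.

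Promoter sequences from RefSeq (GRCm38.p6) were found for 5 of the 9 genes. The 250 bases before the start site are shown, 5′ to 3′, for Cd44 (chr2:102901666-102901915, minus strand), the gene with the lowest adjusted p, and for Krt23 (chr11:99493121-99493370, minus strand), the gene with the largest positive difference. They are also shown for Anxa1 (chr19:20390672-20390921, minus strand) and Sprr1a (chr3:92485882-92486131, minus strand), the genes in which a motif was found. Capitals mark matches, on both strands, to the TEAD motif GGAATG or the AP-1 motif TGANTCA, which do not overlap here.
Cd44: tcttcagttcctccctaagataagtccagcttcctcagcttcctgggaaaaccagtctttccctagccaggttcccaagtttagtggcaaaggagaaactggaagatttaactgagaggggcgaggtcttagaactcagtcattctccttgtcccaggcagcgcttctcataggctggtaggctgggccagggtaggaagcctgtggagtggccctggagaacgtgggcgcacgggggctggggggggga
Krt23: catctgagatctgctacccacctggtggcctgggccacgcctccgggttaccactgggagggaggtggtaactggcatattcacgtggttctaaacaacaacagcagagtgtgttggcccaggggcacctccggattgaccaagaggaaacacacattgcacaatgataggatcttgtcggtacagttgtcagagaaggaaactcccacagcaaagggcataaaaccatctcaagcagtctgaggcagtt
Anxa1: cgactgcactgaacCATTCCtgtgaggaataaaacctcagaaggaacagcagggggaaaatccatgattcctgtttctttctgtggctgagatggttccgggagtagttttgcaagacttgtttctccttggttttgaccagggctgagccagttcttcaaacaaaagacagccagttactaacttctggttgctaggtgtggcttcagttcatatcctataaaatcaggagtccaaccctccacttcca
Sprr1a: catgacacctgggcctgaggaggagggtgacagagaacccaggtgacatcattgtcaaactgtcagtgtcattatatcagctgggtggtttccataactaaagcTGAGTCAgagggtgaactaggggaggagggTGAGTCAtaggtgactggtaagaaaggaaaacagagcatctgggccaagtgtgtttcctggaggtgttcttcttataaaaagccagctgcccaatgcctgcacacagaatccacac
Anxa1 held 1 TEAD match, 236 bases before the start, and Sprr1a held 2 AP-1 matches, 146 and 116 bases before it. Among 32851 promoter windows of the same length, 12.6% held the TEAD motif and 6.75% the AP-1 motif. The Krt7 window and those of Cd44 and Krt23 held neither set of letters, which says nothing of either factor elsewhere.

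The 75th percentile of the signal was 6352.7 to 7110.5 intensity units on control arrays and 4910.5 to 5820 on knockout arrays, and 69.4% to 75.4% of spots were well above background. The control arrays filled 1 slide row and the knockout arrays the other, and row and genotype cannot be told apart. Spots that the scanner software marked as non-uniform or outlying were treated as missing. They made up 16% of spots on knockout replicate 1 and 13.6% on control replicate 1, against 3.26% to 9.05% on the others. Islr itself was lower in the knockout by -2.44 on the log2 scale (SE 0.21, limma adjusted p = 0.0171). The control animals read 1.57 (a marked spot), 1.24 and 1.21 and the knockout animals -1.4, -0.93 and -1.31, without overlap. The labels tie no animal to a litter or cage, and p-values measure only the spread between these samples.

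The 9 genes did not move as a block. Cd44 was lower in the knockout at every probe, and 1 of its probes passed the 5% false discovery rate. Krt23 and Anxa3 were higher in every knockout animal than in any control without passing that test. Ly6a (0.39, 95% interval -0.12 to 0.89) and Anxa1 (0.08, 95% interval -0.48 to 0.65) showed no detectable difference. With marked spots kept, both lay higher in all knockouts. Clu, Krt7, Msln and Sprr1a overlapped between genotypes. Values are log2 signals relative to the array's 75th percentile, so 0 is the 75th percentile, and differences are knockout minus control. All 13 probes were well above background on every control array, and 12 could be tested. Of the 12, 1 was called at an adjusted p under 0.05 in limma, against 3.97% of all 35351 probes tested (2.42% lower and 1.55% higher). With 1 probe per gene, the one with the highest mean signal, 0 of 9 genes were called against 3.82% of 16451 genes. At an unadjusted p under 0.05 in limma, 6 of the 12 probes passed against 26.8% of all. These 6 were all probes of Cd44 and Anxa3 and the Krt23 probe, and probes of a same gene are not independent. Over the 9 genes the median difference was 0.39, with 7 positive and 2 negative. Over all named genes it was 0.01, with 51.2% positive.

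**Figure D1:**
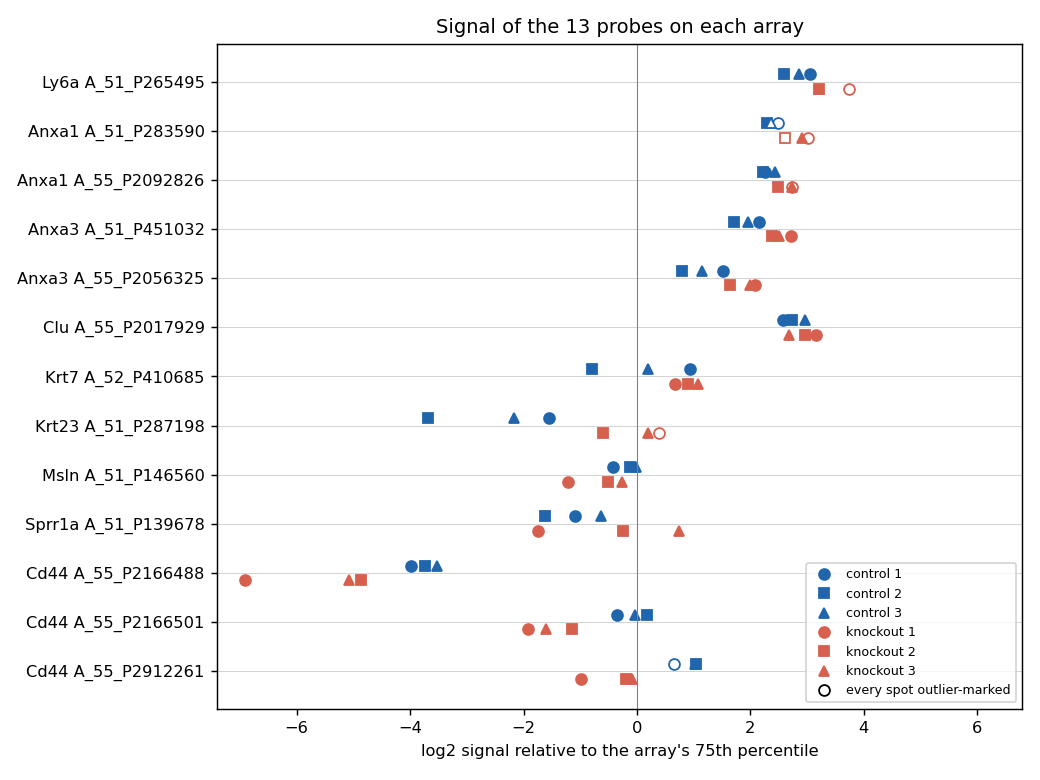
Each point is 1 array; the horizontal axis is the log2 signal relative to that array's 75th percentile, blue marks control and red knockout animals, shapes mark replicates, and open symbols mark values whose every spot was outlier-marked. The knockout points lie wholly to the left of the control points at the 3 Cd44 probes and wholly to the right at Ly6a, Anxa1, Anxa3 and Krt23.

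Counted with marked spots kept, 6 of the 13 probes lay higher in all knockouts than in all controls, against 17.3% of 40172 probes, and 3 lay lower, against 17.6%. The 6 were the probes of Ly6a, Anxa1, Anxa3 and Krt23, and the 3 were those of Cd44. Bright probes as a whole leaned towards the knockout: among the 2150 tested probes with a mean log2 signal above 2, the median difference was 0.15 and 83.5% were positive. After quantile normalization the same probes had a median of 0.01 and 52.7% were positive. Among the 2912 probes of that brightness with marked spots kept, 28.7% lay higher in all knockouts. This touches Ly6a, Anxa1, Clu and an Anxa3 probe, whose differences are therefore also given after quantile normalization.

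Cd44 encodes the cell-surface receptor for hyaluronan and is used as a marker of crypt base and progenitor cells. At the probe that passed (A_55_P2166501), the log2 signal was -0.35, 0.17 and -0.04 in controls and -1.92, -1.15 and -1.6 in knockouts. Even the highest knockout lay 0.8 below the lowest control, more than the whole range of the controls (0.52). Controls averaged -0.07 ± 0.26 (SD, n = 3) and knockouts -1.56 ± 0.39 (SD, n = 3). Cd44 thus fell by 1.48 (log2; SE 0.25, limma adjusted p = 0.0369), that is 2.8-fold. The reference probe of Cd44, the one with the highest mean signal (A_55_P2912261), read 0.66, 1.04 and 1.02 in controls, the first of them a marked spot, and -0.99, -0.19 and -0.08 in knockouts. It showed the same separation and differed by -1.45 (SE 0.31, adjusted p = 0.0633 in limma), which became -1.33 with an adjusted p of 0.0482 when the marked spot was kept.

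The remaining Cd44 probe (A_55_P2166488) read -3.99, -3.73 and -3.53 in controls and -6.92, -4.87 and -5.08 in knockouts. Here too the genotypes did not overlap, but the spot of knockout replicate 1 was not well above background. The difference was -1.87 (SE 0.53, limma adjusted p = 0.0877), and -1.23 without that array. The probes were also compared with each other within each array, in a limma fit over all 6074 pairs of probes of a same gene, of which 0.214% were called. The genotype difference at A_55_P2166501 minus that at the reference probe was -0.17 (SE 0.23, adjusted p = 0.716), and at A_55_P2166488 it was -0.55 (SE 0.38, adjusted p = 0.487). No disagreement between Cd44 probes was therefore detectable with this number of arrays, while in 26.6% of the 5039 genes with several tested probes the probes differed in sign. The call at A_55_P2166501 was lost without control replicate 2 (adjusted p = 0.109), control replicate 3 (0.101), knockout replicate 1 (0.0733) or knockout replicate 3 (0.0955), with differences of -1.3 to -1.69 over all 6 limma fits that left out an array. It was also lost without the filter on dim probes (adjusted p = 0.0562 in limma), where more probes were tested.

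**Figure D2:**
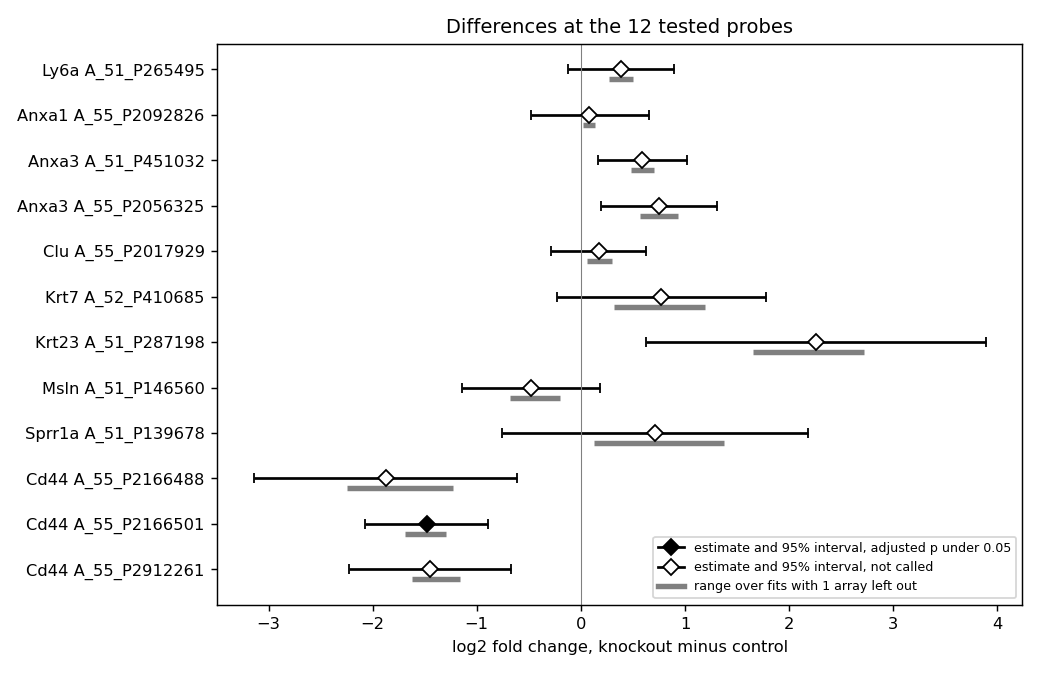
Diamonds are log2 differences, knockout minus control, with the 95% interval of limma; the filled diamond is the 1 probe with an adjusted p under 0.05, and grey bars span the fits with 1 array left out. The 3 Cd44 intervals lie below 0, those of Krt23 and both Anxa3 probes lie above 0, and the other 6 include 0.

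The keratins form intermediate filaments of epithelial cells. Krt23, a type I keratin, showed the largest positive difference of the 9 genes. Its log2 signal was -1.55, -3.69 and -2.16 in controls and 0.39, -0.6 and 0.2 in knockouts, where the first knockout value was a marked spot. Every knockout lay at least 0.95 above every control, and control replicate 2 stood lowest. The means were -2.47 ± 1.1 in controls (SD, n = 3) and -0.2 ± 0.56 in knockouts (SD, n = 2), a difference of 2.26 (SE 0.66, 95% interval 0.63 to 3.89), equal to 4.8-fold, with a limma adjusted p of 0.101. With the marked spot kept the difference was 2.46 and the adjusted p 0.0559, so Krt23 stayed outside the threshold. Without control replicate 2 it was 1.65 (limma adjusted p = 0.139). Krt7, a type II keratin of simple and transitional epithelia, read 0.93, -0.8 and 0.2 in controls and 0.68, 0.9 and 1.07 in knockouts. Knockout animals lay close together and within reach of control replicate 1, whereas the controls spanned 1.73. Its difference was 0.77 (SE 0.42, 95% interval -0.23 to 1.78, limma adjusted p = 0.286), and it was 0.32 without control replicate 2.

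Annexins bind phospholipid membranes in the presence of calcium. Anxa3 has 2 probes without any marked spot. At the reference probe (A_51_P451032) the log2 signal was 2.15, 1.72 and 1.96 in controls and 2.72, 2.38 and 2.51 in knockouts. At the other (A_55_P2056325) it was 1.52, 0.8 and 1.15 in controls and 2.09, 1.64 and 2 in knockouts. Genotypes did not overlap at either probe, and the animals kept the same order at both, with control replicate 2 lowest and knockout replicate 1 highest. The difference was 0.59 (SE 0.18, 95% interval 0.16 to 1.02) at the reference probe, a 1.51-fold higher signal, and 0.75 (SE 0.23) at the other, with limma adjusted p-values of 0.1 and 0.104. After quantile normalization the differences were 0.43 and 0.64. The difference between the probes, 0.16 (SE 0.13, adjusted p = 0.546), was within their error.

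Anxa1 limits leukocyte recruitment through formyl peptide receptors. Its main probe (A_55_P2092826) was printed in 10 spots, of which the software marked 30% to 100% on each array, and all of them on knockout replicate 1. From the remaining spots the mean was 2.41 ± 0.12 in controls (SD, n = 3) and 2.49 ± 0.39 in knockouts (SD, n = 2), a difference of 0.08 (SE 0.23, 95% interval -0.48 to 0.65, limma adjusted p = 0.844). With all spots kept it read 2.26, 2.23 and 2.43 in controls and 2.73, 2.49 and 2.73 in knockouts, a difference of 0.34 (SE 0.15, adjusted p = 0.207). The second probe (A_51_P283590) could not be tested, since 4 of its 6 spots were marked. With them kept it read 2.49, 2.29 and 2.37 in controls and 3.01, 2.61 and 2.91 in knockouts, a difference of 0.46 (SE 0.17, adjusted p = 0.143). With marked spots kept, knockouts lay above controls at both probes. Scaled by quantiles, with marked spots missing, the main probe differed by 0.01, and by -0.04 when normexp background correction was added.

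Ly6a encodes a small GPI-anchored surface protein that is induced by interferons. Its log2 signal was 3.05, 2.59 and 2.85 in controls and 3.74, 3.21 and 3.22 in knockouts, where knockout replicate 1 was a marked spot. The groups were separated by 0.16, less than the range within either genotype. Without the marked spot the mean was 2.83 ± 0.23 in controls (SD, n = 3) and 3.22 ± 0.01 in knockouts (SD, n = 2). The difference of 0.39 (SE 0.2, 95% interval -0.12 to 0.89) did not pass (limma adjusted p = 0.285), and it was 0.36 after quantile normalization. Clu, a secreted chaperone, read 2.58, 2.73 and 2.97 in controls and 3.15, 2.97 and 2.68 in knockouts. Here the genotypes overlapped over most of their range, with a difference of 0.17 (SE 0.19, 95% interval -0.29 to 0.63, limma adjusted p = 0.6) that was 0.01 after quantile normalization.

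Msln encodes mesothelin, a GPI-anchored protein of mesothelium and of some injured epithelia. It read -0.42, -0.12 and -0.01 in controls and -1.22, -0.51 and -0.26 in knockouts. Control replicate 1 lay between the knockouts, and the difference of -0.48 (SE 0.28, 95% interval -1.14 to 0.18, limma adjusted p = 0.31) was -0.2 without knockout replicate 1. Sprr1a encodes a small proline-rich precursor of the cornified envelope that wound edges also make. Its values were -1.1, -1.63 and -0.64 in controls and -1.74, -0.24 and 0.74 in knockouts. Knockout animals spanned 2.48 and enclosed the controls, so that the difference of 0.71 (SE 0.62, limma adjusted p = 0.498) became 0.13 without knockout replicate 3 and 1.37 without knockout replicate 1.

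In whole colon, fewer cells of a type and less RNA per cell cannot be told apart, so marker lists of the cells that can make these transcripts were set beside them. Their levels are summed signals of the tested genes of a list in units of the array's 75th percentile. All 10 colon epithelium markers were well above background on every array. Their sum was 46.8, 13.4 and 35.5 in controls and 75.2, 57.2 and 55.9 in knockouts, with 8 of 8 tested genes positive, a median difference of 1.32 and 0 called. Control replicate 2, which held the least epithelial signal, was also the lowest control for Ly6a, Anxa1, Anxa3, Krt7, Krt23 and Sprr1a. The other lists moved too. The neutrophil sum was 28.4 to 29.7 in controls and 18.7 to 20.5 in knockouts, with 7 of 9 tested genes called lower against 2.47% of all genes, among them S100a8 (-3.92) and Retnlg (-4.47), both neutrophil proteins, each fitted without its marked spots. Csf3r (0.17) and Trem1 (0.18), the 2 tested genes not lower, had the highest signal of the list on every array. They carry most of the sum, which therefore understates the fall of the other 7 genes (median of the list -2.86).

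Endothelial (8.79 to 10.4 against 2.84 to 6.22), fibroblast (34.9 to 40.7 against 23.1 to 30.3) and macrophage sums (17.5 to 24.4 against 11.9 to 15.9) were lower in all knockouts than in all controls. The only called gene among these 3 lists was Pdgfrb (-1.17, limma adjusted p = 0.0395), a receptor of mesenchymal cells. The T cell sum (5.99 to 8.7 and 6.34 to 7.61) and the B and plasma cell sum (6.39 to 18.2 and 4.45 to 13.7) overlapped, and the smooth muscle sum was 39.7 to 49.8 in controls and 54.2 to 64.2 in knockouts. The 6 tested smooth muscle genes differed by 0.34 to 0.52 with 0 called, and bright probes as a whole leaned towards the knockout. None of the marker sums was computed after quantile normalization. Mesothelial markers without the keratin Krt19, which colon epithelium shares, summed to 1.55 to 1.99 in controls and to 0.63, 1.21 and 2.02 in knockouts. Squamous markers, which would show a piece of anal skin, summed to 9.49 to 11.6 in controls and 11.3 to 12.2 in knockouts, of which the Trp63 probe alone gave 7.96 to 10.2 and 9.65 to 11.1. The other 7 tested squamous markers summed to 1.39 to 1.84 and 1.15 to 1.78. Of all 8, 6 were positive (median 0.47), 4 had an unadjusted p under 0.05 and 0 were called in limma. The squamous keratins Krt14 (1.23), Krt15 (1.18) and Krt4 (0.66) were higher in every knockout than in any control, and Sbsn (-0.71) was lower. The keratins Krt5 (-0.35) and Krt13 (0.88) overlapped between genotypes. Over all probes, with marked spots kept, 17.3% lay higher in all knockouts and 17.6% lower. What part these differences had in the values of Cd44, Krt23 and the other genes was not tested.

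**Figure D3:**
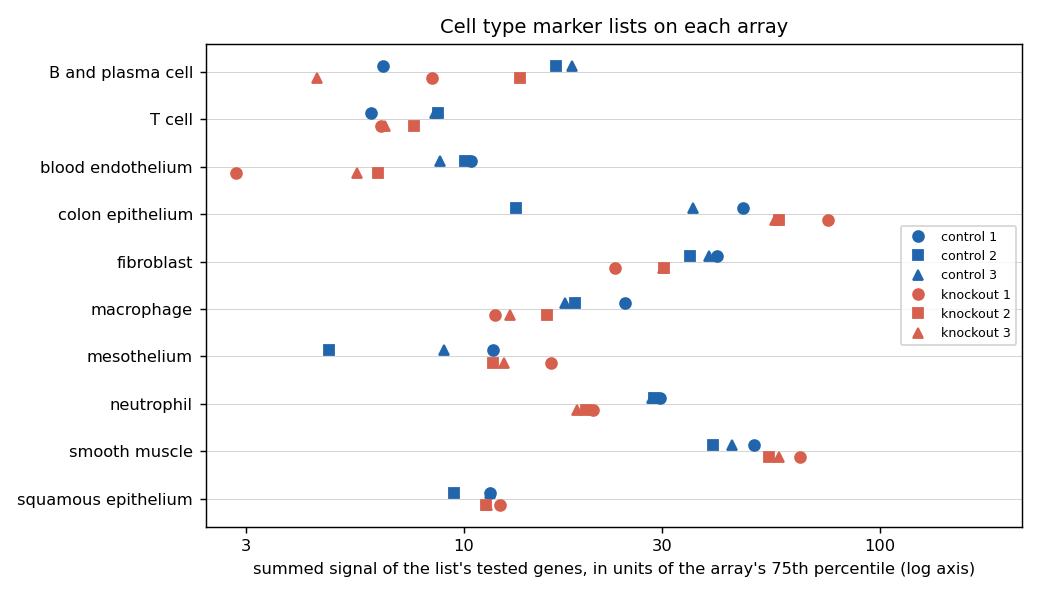
Each point is the summed signal of 1 marker list on 1 array, in units of the array's 75th percentile on a log axis, with blue for control and red for knockout animals. Colon epithelium (55.9 to 75.2 against 13.4 to 46.8) and smooth muscle (54.2 to 64.2 against 39.7 to 49.8) lie to the right in knockouts. Neutrophil, endothelial, fibroblast and macrophage lists lie to the left. The mesothelium list is plotted with Krt19, which colon epithelium shares (11.8 to 16.2 in knockouts against 4.75 to 11.8 in controls).

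Each gene was also expressed relative to the mean log2 signal of the 8 tested colon epithelium markers on the same array, as a description of unequal change and with marked spots kept. On this scale Krt23 was -3.91, -3.91 and -4.06 in controls and -2.64, -3.33 and -2.41 in knockouts. It was the one gene of the 9 that lay higher in all knockouts, and the SD of its 3 control values, 1.1 in the unadjusted signal, was 0.08. The control SD also fell for Krt7 (0.87 to 0.34), but it rose for the other genes, such as Ly6a (0.23 to 0.9) and Clu (0.2 to 1.16). The 3 Cd44 probes lay lower in all knockouts. The difference was -2.78 at A_55_P2166501 and -2.62 at the reference probe; no size is given for A_55_P2166488, whose spot on knockout replicate 1 was not well above background. Msln also lay lower in all knockouts on this scale (-2.78, -0.34 and -1.91 in controls against -4.25, -3.24 and -2.87). Ly6a, Anxa1, Anxa3, Clu, Krt7 and Sprr1a overlapped, with differences of -0.52 to -1.12. The epithelial mean itself was 2.36, 0.22 and 1.9 in controls and 3.03, 2.72 and 2.61 in knockouts, a difference of 1.29, so any gene with a smaller unadjusted difference is negative on this scale. Without control replicate 2, an alternative chosen after seeing the data, the epithelial difference was 0.66 and those of the 6 overlapping genes were -0.08 to -0.5. Krt23 was then 1.19 and Msln -1.11, and Cd44 was -2.02 at A_55_P2166501 and -1.92 at the reference probe, still without overlap.

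**Figure D4:**
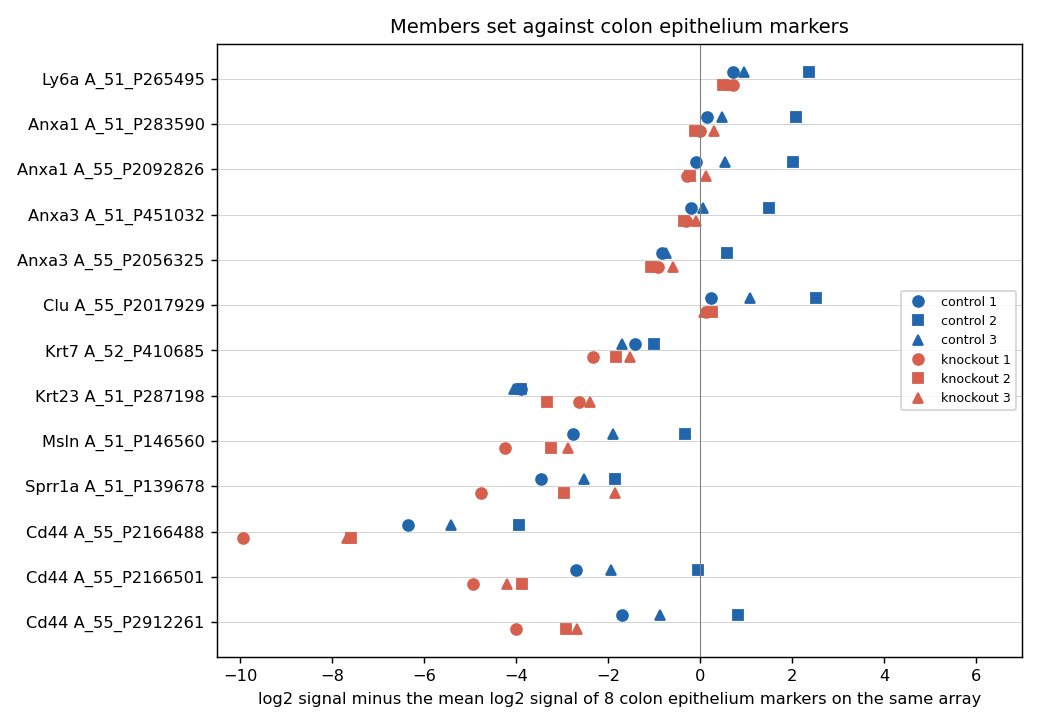
Each point is the log2 signal of a probe minus the mean log2 signal of 8 colon epithelium markers on the same array, with blue for control and red for knockout animals. Krt23 lies to the right in all knockouts, Cd44 and Msln to the left, and the other genes overlap.

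Other genes of the same programme and of the members' families were counted with 1 probe per gene. Of 20 further repair epithelium genes 18 were tested, with 0 called higher and 1 called lower (all genes tested: 1.35% higher and 2.47% lower), 8 positive, 10 negative and a median of -0.25. The called gene was Spp1, osteopontin, a secreted ligand of integrins and of Cd44. It read 0.57, -0.05 and -0.72 in controls and -3.87, -2.58 and -2.61 in knockouts, and fell by -2.96 (SE 0.46, limma adjusted p = 0.0331). For Spp1 every knockout lay below every control, by more than the range within either genotype. Which cells of the whole colon gave the Spp1 signal was not tested. The reference probe of the gap junction gene Gja1 was not called (-1.57, SE 0.38, limma adjusted p = 0.0657), whereas another of its probes was (limma adjusted p = 0.00848): it was well above background on all control and no knockout arrays, so the signal was at least 3.14-fold lower. The uncalled genes named by the rule of highest signal were Anxa2 (0.54, SE 0.18, adjusted p = 0.117), Anxa8 (0.24, SE 0.15, adjusted p = 0.344) and Ccn2 (-0.66, SE 0.19, adjusted p = 0.119), all by limma. Ccn2, a YAP target, was fitted without marked spots, which left out knockout replicate 1 (0.38, against 1.83 and 1.86 in the other two knockouts). After quantile normalization Anxa2 differed by 0.39, Anxa8 by 0.09 and Ccn2 by -0.77.

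Among partners of the members, 10 of 14 were tested and 0 were called, with 4 positive, 6 negative and a median of -0.37. The Anxa1 receptor gene Fpr1 and the hyaluronan synthase Has2, chosen after their values were seen, missed the threshold, at -2.47 (SE 0.54, limma adjusted p = 0.0633) and -1.62 (SE 0.35, limma adjusted p = 0.0543). Fpr1, also fitted without marked spots, is made by neutrophils, whose lower marker sum stands above; its part in the Fpr1 value was not tested. Lrp8, a lipoprotein receptor that can bind Clu, differed by 0.94 (SE 0.36, limma adjusted p = 0.154). S100a11, a partner of Anxa1, differed by 0.14 (SE 0.15) and by -0.01 after quantile normalization, and the hyaluronan-binding Hmmr by -0.04 (SE 0.16). In the Ly6 family 0 of 10 tested genes were called, with 5 positive, 5 negative and a median of 0.19. The lowest was Ly6h (-0.54, SE 0.25). The highest were Ly6g6d (1.89, SE 0.52, limma adjusted p = 0.0838) and Ly6f (1.33, SE 0.29, limma adjusted p = 0.0552), both higher in every knockout than in any control. The Ly6 genes named by the rule of highest signal, Ly6c1, Ly6c2 and Ly6e, differed by 0.51 (SE 0.17), 0.49 (SE 0.18) and 0.47 (SE 0.18). After quantile normalization they differed by 0.33, 0.33 and 0.3, and Ly6a by 0.36. Ly6c1 and Ly6c2 are near-identical copies, so their separate values are uncertain.

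Of 9 further annexins tested 6 were positive, with a median of 0.31 and 0 called. Anxa4, which epithelia make, differed by 0.76 (SE 0.26, limma adjusted p = 0.129). The lowest was Anxa6 (-0.57, SE 0.2) and the highest Anxa13 (3.51, SE 1.1, limma adjusted p = 0.106), which was well above background on at most 5 arrays. The 5 keratins listed for simple epithelium had a median of 0.82, with 4 positive, 1 negative (Krt80, -0.73, SE 0.73) and 0 called. Krt8 differed by 0.68 (SE 0.44), Krt18 by 1.33 (SE 0.33), Krt19 by 0.85 (SE 0.55) and Krt20 by 0.82 (SE 0.33), each fitted without marked spots. Krt18 was the highest of the 5 (limma adjusted p = 0.0803). Small proline-rich and cornified envelope genes were measured at 7 of 14, with 6 positive and 0 called; 5 of the 14 were well above background on no array. Sprr2a3 (0.36, SE 0.2) and Sprr2b (0.5, SE 0.24) did not pass, and were 0.2 and 0.36 after quantile normalization. Tgm1, a transglutaminase that crosslinks the cornified envelope, was the 1 negative gene, at -1.91 (SE 0.43, limma adjusted p = 0.0592). All 7 tested YAP and TEAD factor genes were negative, with a median of -0.41 and 0 called: Yap1 stood at -0.36 (SE 0.15), Wwtr1, which encodes TAZ, at -0.86 (SE 0.32) and Tead1 at -0.46 (SE 0.14).

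**Figure D5:**
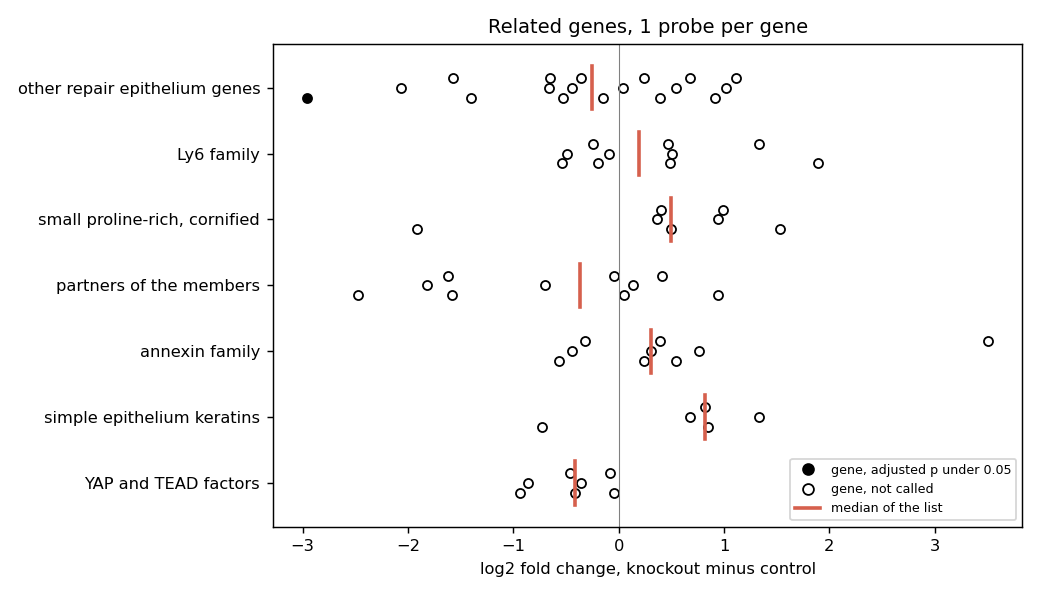
Each circle is 1 gene, placed by its log2 difference, knockout minus control; filled circles have an adjusted p under 0.05 and red bars are list medians. The filled circle is Spp1 at -2.96, and the YAP and TEAD factors all lie below 0.

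For the genes with all 6 usable values, the 2 most similar profiles among 13680 genes were found as the lowest root mean square difference of centred log2 values over the 6 arrays. Anxa3 was nearest to Pawr and Mad2l1bp, each within 0.03. Krt7 was nearest to Agpat2 (0.11) and Sord (0.13), and Sprr1a to Prrt4 (0.15) and Hbegf (0.16), an EGF receptor ligand. Msln was nearest to Camkk2 (0.06) and Tubb6 (0.07), and Clu to Cela2a and Rnu1a1 (0.06 each). With 6 values and 13680 genes to choose from, near matches can arise by chance, and shared regulation was not tested.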

How the data were processed

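Colon RNA from 3 control and 3 Islr knockout mice was hybridised to single-colour Agilent arrays (design 074809), each with 59305 non-control spots. Per the file headers, Feature Extraction 11.5.1.1 was used, where the submitters' processing notes name 10.7; the labels name Cy3, whereas each file held the red channel. The deposited processed signal is an intensity after detrending and background subtraction, not scaled between arrays, as the headers record. The deposited series value table held nearly the same intensities (log2 correlation of at least 0.999999) and served as an alternative. For the Anxa1 probe printed in 10 spots it gave a difference of 0.19, against 0.34 with marked spots kept. No spot was saturated.

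Signals were converted to log2 and centred on each array's 75th percentile; marked spots were set to missing and spots of a probe averaged. A probe was tested if well above background on all 3 arrays of a group, with at least 2 usable values in each. Genotypes were compared by limma 3.58.1 (R 4.3.3; lmFit, then eBayes, two-sided), adjusting over 35351 probes by Benjamini-Hochberg. The number of arrays limits the precision: an exact permutation test of 3 against 3 reaches p = 0.1 at best. Simulating this comparison (35351 probes), 50% of 100 probes changed by 2 on the log2 scale were recovered and 3% of 100 changed by 1, with 4 false among 57 calls. Only these probes changed in the simulation, and its noise was drawn separately for each probe. In the data 1403 probes were called, so the adjustment was less strict and these shares need not hold there. Probes were named through RefSeq accessions of GRCm38.p6 (33767 of 56605); the files use mm9, so no probe coordinates are given. The members and lists were chosen with earlier results of these data known. Named list genes were up to 6 called with the largest difference and 3 uncalled with the highest signal. Other list genes in the text, such as the lowest or highest of a list, were named for their values. Alternatives covered scaling, background correction, marked spots, the filter, array weights, the value table, the probe rule and each array left out.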

Additional observations from a re-analysis of the deposited data

How the results depend on the processing

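All 12 tested member probes kept their sign under every alternative run except Anxa1 A_55_P2092826, which was -0.04 under normexp background correction with quantile normalization; the cause was not tested. Over all probes 1403 were called, against 2249 with median centring, 2185 with quantile normalization, 2773 with normexp, 484 without the filter on dim probes, 9292 with array weights, 2274 with the value table and 40 to 2114 with 1 array left out. Leaving out control replicates 1, 2 and 3 in turn gave 2114, 71 and 90 calls, and knockout replicates 1 and 3 gave 263 and 40. Of these calls 39.1% were higher in the knockout as reported, 33.7% to 49.4% under the other settings and 10% to 55.1% with 1 array left out: leaving out knockouts 1, 2 and 3 in turn gave 24.7%, 26.5% and 10%, and controls 1, 2 and 3 gave 55.1%, 29.6% and 34.4%. The number of member probes called was 1 as reported, 2 with median centring, quantile normalization, marked spots kept or the value table, 3 with normexp, 0 without the filter, 7 with array weights and 0 to 1 with 1 array left out. Under array weights the 7 were the 3 Cd44 probes, both Anxa3 probes, Krt7 (1.43) and Krt23 (3.08). The median over the 9 genes was 0.32 to 0.59 under the other settings, and 0.22 to 0.5 with 1 array left out, over the 6 to 9 genes that could then be tested. Krt23, Ly6a and Anxa1 could not be tested without knockout replicate 2 or 3, nor the Cd44 reference probe without control replicate 2 or 3. No paired analysis was possible because replicate numbers only name the animals and the labels pair none of them.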
